A study of Mus musculus with 6 samples.

Results

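The genes described here carry the visual cycle, the traffic of retinoids between photoreceptors and the cells around them. Light turns the cis retinal bound to opsin into its all-trans form, which photoreceptors reduce to retinol. The pigment epithelium takes up the retinol, stores it as an ester, isomerises it and oxidises it back to cis retinal, and Müller glia run a related path that serves cones. The list held 10 genes: Rdh12, Rdh8, Rbp3 and Rdh11 for photoreceptors, Rlbp1 and Rgr for Müller glia, Rpe65, Lrat and Rdh5 for the pigment epithelium, and Dhrs3, which is active in several cell types. Every probe set that the array annotation gives to exactly 1 of these genes was taken. That gave 13 of 45037 probe sets, for 9 of the 10 genes listed and of 18193 genes named on the array, since no probe set names Rdh8, the all-trans retinol dehydrogenase of outer segments. The class of a gene is its best known site of synthesis, not a result: Rlbp1 and Rgr are also made by pigment epithelium, and Rdh11 by many tissues.

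Retinas of BALB/c AJ mice, an albino strain, were taken at post-natal day 40 after dissection away from the pigment epithelium. Of the 6 arrays, 3 carry the label of the homozygous Nxnl2 knockout (ko/ko) and 3 that of the wild type (wt/wt). Nxnl2 encodes a thioredoxin-like protein of photoreceptors. The labels do not state how many animals a sample holds, nor whether replicates are separate animals, so a p-value here reflects sample-to-sample spread, part of which may be technical. All values are log2 values after RMA, a method that corrects background, brings arrays to 1 distribution and summarises the probes of a probe set. The highest of 27 Bacillus control probe sets, which match no mouse transcript, lay between 4.13 and 4.60 and served as the mark of background on each array.

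The targeted gene goes against the label of 1 array. The brighter Nxnl2 probe set read 3.78, 3.73 and 9.21 in knockout replicates 1, 2 and 3, against 11.38, 11.45 and 11.42 in wild type. Over all probe sets the array labelled knockout replicate 3 correlated with each other array at 0.848 to 0.853, where pairs among the other 5 reached 0.994 to 0.996. Of 11 measured rod markers, 11 lay at least 2 log2 units below the wild-type mean there, and of 11 measured markers of olfactory and respiratory mucosa, 10 lay as far above it. That array is therefore called by its label and shown apart, and the comparison is given with all 6 arrays and with the other 5.

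Promoters of 3 of the genes hold a letter pattern that both photoreceptor and pigment epithelium genes are known for. The motif TAATCC, or GGATTA on the other strand, is the core bound by the homeodomain factors CRX of photoreceptors and OTX2 of photoreceptors and pigment epithelium. It was searched on both strands in RefSeq windows of 300 bases, 250 before and 50 from the transcript start onward, in build GRCm38.p6. The windows of Rbp3, Rpe65 and Rgr held it once each, and those of the other 7 genes did not. Of all 32851 windows in the table, 7.06% held it. These 3 are shown because they are the windows of the list that held the motif. Each is written 5′ to 3′ on the strand of the gene, with the motif in capitals, at chr14:33953753-33954052 (plus strand) for Rbp3, chr3:159598931-159599230 (plus strand) for Rpe65 and chr14:37048965-37049264 (minus strand) for Rgr.
Rbp3: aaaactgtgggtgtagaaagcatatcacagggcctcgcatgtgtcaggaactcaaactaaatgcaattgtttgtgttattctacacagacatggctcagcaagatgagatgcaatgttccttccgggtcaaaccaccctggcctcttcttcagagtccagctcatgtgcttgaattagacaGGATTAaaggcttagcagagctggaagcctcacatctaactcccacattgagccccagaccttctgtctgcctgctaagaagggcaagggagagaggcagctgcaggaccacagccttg
Rpe65: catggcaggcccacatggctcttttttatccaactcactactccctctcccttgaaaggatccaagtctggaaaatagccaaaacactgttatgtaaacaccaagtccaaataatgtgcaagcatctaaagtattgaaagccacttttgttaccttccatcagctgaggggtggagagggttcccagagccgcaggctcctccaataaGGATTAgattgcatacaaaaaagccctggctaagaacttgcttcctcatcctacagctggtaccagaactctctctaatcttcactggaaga
Rgr: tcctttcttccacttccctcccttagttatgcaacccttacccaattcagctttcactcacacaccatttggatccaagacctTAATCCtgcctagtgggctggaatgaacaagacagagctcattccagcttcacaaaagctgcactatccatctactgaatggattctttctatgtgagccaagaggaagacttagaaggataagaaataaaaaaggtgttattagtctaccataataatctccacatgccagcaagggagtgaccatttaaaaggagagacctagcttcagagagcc
The motif began 69 bases before the start in Rbp3, 42 before it in Rpe65 and 167 before it in Rgr. A match describes letters only, and no binding was measured.

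Photoreceptor genes of the cycle differed little between knockout replicates 1 and 2 and wild type. Rdh12 encodes the retinol dehydrogenase of inner segments that clears free retinal. Its brighter probe set read 11.87 and 12.35 in knockout replicates 1 and 2, against 12.17, 12.09 and 12.14 in wild type. The knockout values lay on either side of all 3 wild-type values. The difference was -0.02 (SE 0.14, 95% interval -0.36 to 0.31, limma adjusted p = 0.99998). Its dimmer probe set read 11.10 and 11.27 in knockout, against 11.27, 11.05 and 11.28 in wild type, a difference of -0.01.

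Rbp3 encodes the retinoid carrier that photoreceptors secrete into the matrix between them and the pigment epithelium. The brighter probe set read 13.12 and 13.32 in knockout replicates 1 and 2, against 13.25, 13.18 and 13.52 in wild type. Groups overlapped, and the difference was -0.09 (SE 0.13, 95% interval -0.39 to 0.21). The dimmer one read 8.76 and 8.95 in knockout, against 9.02, 9.46 and 8.81 in wild type. Wild-type replicate 2 was highest there, and the difference of -0.24 (SE 0.18) became -0.06 without it. Rdh11, a broadly expressed retinal reductase, had the steadiest probe set of all 13. That probe set, its dimmer one, read 8.20 and 8.16 in knockout, against 8.13, 8.17 and 8.18 in wild type. The 5 values spanned 0.07, and 99.3% of all probe sets spanned at least as much. The brighter Rdh11 probe set read 8.76 and 8.39 in knockout, against 8.52, 8.61 and 8.80 in wild type, a difference of -0.07 (SE 0.14).

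**Figure D1:**
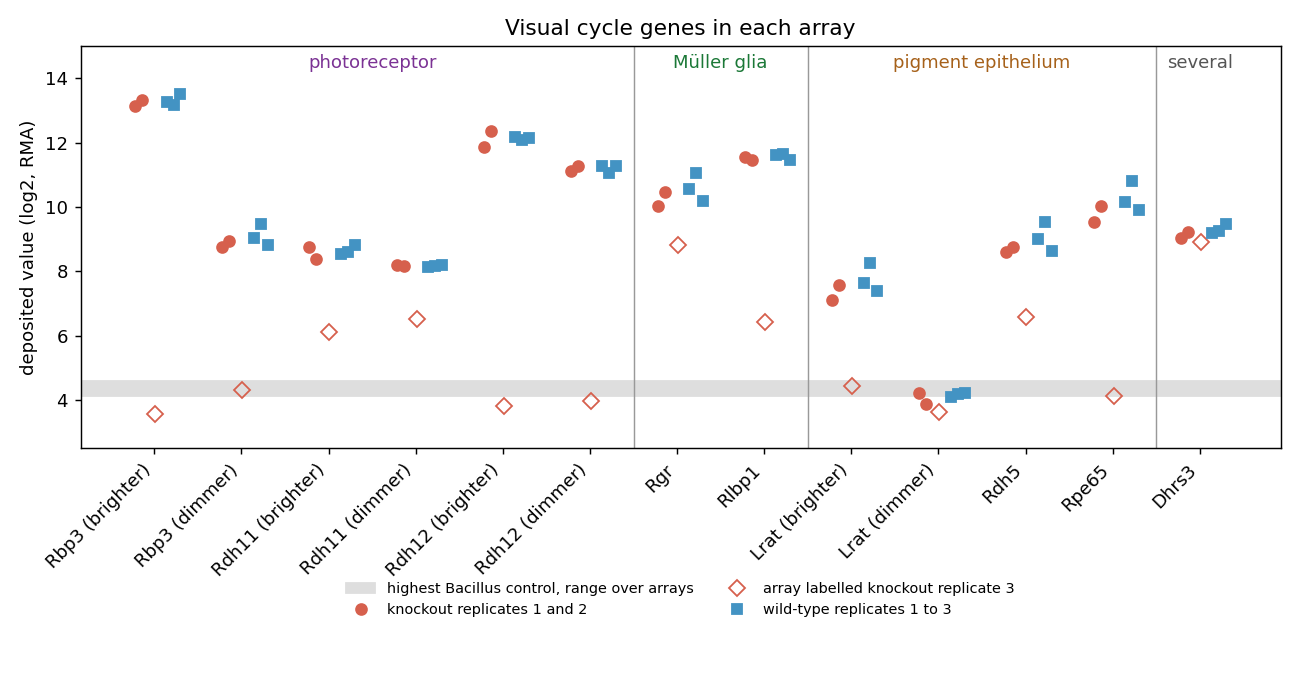
Deposited log2 values (vertical axis) of the 13 visual cycle probe sets in each array, grouped by cell class. Filled circles are knockout replicates 1 and 2, the open diamond is the array labelled knockout replicate 3, squares are wild type, and the grey band is the range of the highest Bacillus control. Circles and squares overlap for every probe set, while the diamond lies below them for each.

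Rpe65, Rdh5 and the brighter Lrat probe set of the pigment epithelium varied more between arrays than the photoreceptor probe sets, and their differences were larger and negative, but none passed the test. Rpe65, the isomerase that makes cis retinol from retinyl esters, read 9.54 and 10.02 in knockout replicates 1 and 2, against 10.15, 10.82 and 9.90 in wild type. Knockout replicate 1 was lowest and wild-type replicate 2 highest, and knockout replicate 2 lay above wild-type replicate 3. The difference was -0.51 (SE 0.26, 95% interval -1.10 to 0.09, limma unadjusted p = 0.0848, adjusted p = 0.99998). Leaving out wild-type replicate 2 brought it to -0.24. All 5 values lay above the background mark although the tissue was dissected free of the pigment epithelium.

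Lrat, the acyltransferase that makes the retinyl esters Rpe65 uses, was readable with 1 of its 2 probe sets. The brighter one read 7.10 and 7.58 in knockout, against 7.64, 8.26 and 7.40 in wild type. Its difference of -0.43 (SE 0.25, adjusted p = 0.99998) became -0.18 without wild-type replicate 2. The dimmer one lay above the background mark in 1 of these 5 arrays, at 4.22 and 3.89 in knockout, against 4.08, 4.20 and 4.22 in wild type, so its difference of -0.11 says little about the transcript.

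Rdh5, the dehydrogenase that oxidises cis retinol to cis retinal, read 8.59 and 8.76 in knockout replicates 1 and 2, against 9.00, 9.54 and 8.64 in wild type. The difference was -0.39 (SE 0.23, adjusted p = 0.99998), and -0.15 without wild-type replicate 2. A further probe set that the annotation gives to both Rdh5 and Bloc1s1 was left out.

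The Müller glia genes parted ways. Rlbp1 encodes CRALBP, the carrier of cis retinoids, and read 11.53 and 11.46 in knockout replicates 1 and 2, against 11.62, 11.63 and 11.47 in wild type. The 5 values spanned 0.17, and the difference was -0.08 (SE 0.10, 95% interval -0.31 to 0.16). Rgr, a retinal-binding opsin that acts as a light-driven isomerase, read 10.02 and 10.47 in knockout, against 10.56, 11.06 and 10.19 in wild type. Its range of 1.03 was exceeded or matched by 0.988% of all probe sets. Its difference of -0.35 (SE 0.24, adjusted p = 0.99998) became -0.13 without wild-type replicate 2. That array had its highest value, so leaving it out must raise the difference. Rgr ran in the order of Rpe65 over the 5 arrays and Rlbp1 did not, though wild-type replicate 2 was highest for Rlbp1 as well.

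Dhrs3 encodes an enzyme that reduces all-trans retinal to retinol. It read 9.03 and 9.22 in knockout replicates 1 and 2, against 9.18, 9.24 and 9.45 in wild type. Groups overlapped, with a difference of -0.16 (SE 0.12, 95% interval -0.44 to 0.12).

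Single arrays moved the differences of Rpe65, the brighter Lrat probe set, Rdh5 and Rgr both ways, though all stayed below 0 whichever array was left out. Without knockout replicate 1 they were -0.27 for Rpe65, -0.19 for the brighter Lrat probe set, -0.30 for Rdh5 and -0.13 for Rgr. Without knockout replicate 2 the difference of Rpe65 was -0.74. Leaving out wild-type replicate 3 also enlarged them, to -0.70 for Rpe65, -0.61 for the brighter Lrat probe set, -0.60 for Rdh5 and -0.56 for Rgr.

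By limma with Benjamini-Hochberg adjustment over all probe sets, 0 of the 13 passed an adjusted p of 0.05 in the 5 arrays and 0 had an unadjusted p under 0.05. Of all 45037 probe sets, 0.0111% passed, 5 in number, and 1375 had an unadjusted p under 0.05. Differences of the 13 ran from -0.51 to 0.02, 12 of them below 0, with a median of -0.11 where the median over all probe sets was 0.00. Medians by class were -0.05 over 6 photoreceptor probe sets, -0.21 over 2 of Müller glia and -0.41 over 4 of pigment epithelium. In no member did both knockout values lie below every wild-type value, as in 7.86% of all probe sets, or above every one, as in 8.4%.

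**Figure D2:**
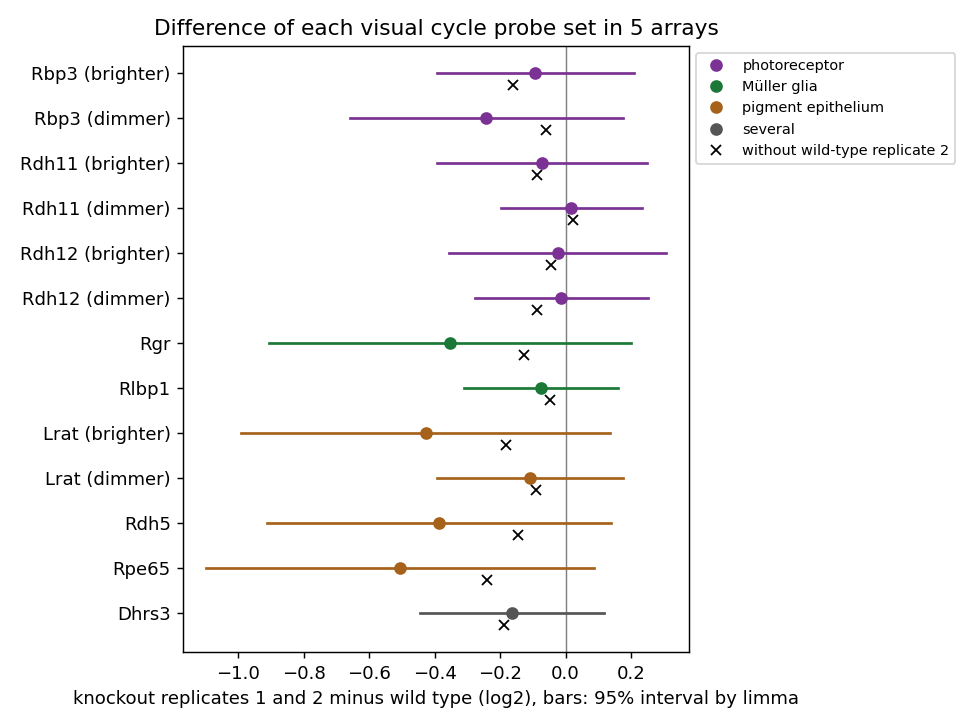
Difference of knockout replicates 1 and 2 minus the 3 wild-type arrays (log2, horizontal axis) for each visual cycle probe set, with the 95% interval by limma as a bar and the value without wild-type replicate 2 as a cross. Every interval holds 0, and the crosses of Rpe65, Rdh5, Rgr and the brighter Lrat probe set lie nearer to 0, between -0.24 and -0.13.

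With all 6 arrays, as the design has it, both the differences and their errors were larger. The brighter Rbp3 probe set stood at -3.32 (SE 2.72), the brighter Rdh12 probe set at -2.79 (SE 2.34), Rpe65 at -2.39 (SE 1.61) and Rlbp1 at -1.76 (SE 1.43). Each had a limma adjusted p = 0.798. Of the 13 probe sets 0 passed, as did 0% of all probe sets. At an unadjusted p under 0.05 stood 0 of the 13 and 452 of all probe sets.

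Pigment epithelium genes ran high and low in the same arrays. Rpe65, the brighter Lrat probe set, Rdh5, Rgr and the dimmer Rbp3 probe set shared 1 order over the 5 arrays: knockout replicate 1 was lowest, then wild-type replicate 3, knockout replicate 2 and wild-type replicate 1, with wild-type replicate 2 highest. These are 5 of the 13 probe sets, among them Rpe65, whose own order set the pattern and which matches it by definition. Of all probe sets 1.03% had that order, which was picked after the values were seen. Relative to its wild-type mean Rpe65 lay at -0.74 and -0.27 in knockout replicates 1 and 2, where wild-type replicates 1, 2 and 3 lay at -0.14, 0.53 and -0.39. The brighter Lrat probe set lay at -0.66 and -0.19 in knockout, where wild type lay at -0.13, 0.49 and -0.37. For both, knockout replicate 1 lay below every wild-type value and further from the wild-type mean than any wild-type array. Knockout replicate 2 lay between wild-type replicates 3 and 2. Fewer pigment epithelium cells in a sample and less RNA per cell cannot be told apart in bulk tissue.

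Most other markers of pigmented cells moved along the same arrays. Over 12 measured markers of pigment epithelium and choroid melanocytes, none of them a visual cycle gene, the median deviation was -0.61 and -0.19 in knockout replicates 1 and 2, where wild-type replicates 1, 2 and 3 lay at -0.17, 0.45 and -0.26. Their summed linear signal was 1141 and 1702 in knockout replicates 1 and 2, against 1592, 2577 and 1445 in wild type. Of the 12, knockout replicate 1 was lowest of the 5 arrays in 10 and wild-type replicate 2 highest in 9, and 0 passed the limma test. At most 1 of the 12 lay below the background mark in any of these 5 arrays.

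Of the 12, 3 shared the order of Rpe65 over the 5 arrays. The pigment enzyme gene Tyrp1 read 6.69 and 7.32 in knockout replicates 1 and 2, against 7.45, 8.15 and 7.22 in wild type, in that order, and Pmel and Mlana were the others. Tyr and Dct also had knockout replicate 1 lowest and wild-type replicate 2 highest, with another order between them. Others did not follow. Slc45a2 and Best1 were highest in knockout replicate 2, with differences of 0.00 and -0.04. Mitf was highest in knockout replicate 1, with a difference of 0.08, and Gpr143 was lowest in wild-type replicate 3. Lens markers stood high in wild-type replicate 2: of 12, that array was highest in 12 and knockout replicate 1 lowest in 10, and Cryba2 and Cryba4 ran in the order of Rpe65. The median deviation of lens markers reached 1.88 in wild-type replicate 2, while the remaining 4 arrays had medians from -1.05 to -0.80. The wild-type mean includes wild-type replicate 2, which pulls the latter below 0. Cryaa read 9.72 and 9.92 in knockout replicates 1 and 2, against 9.83, 12.47 and 9.86 in wild type. Rod markers had medians between -0.11 and 0.07 in the 5 arrays and Müller glia markers between -0.04 and 0.06. Knockout replicate 1 was nonetheless lowest in 8 of 11 rod markers, and wild-type replicate 2 highest in 2. For Müller glia markers these counts were 1 and 3 of 12. The rod marker Prph2 stood at -0.77 without overlap of groups (limma adjusted p = 0.99998). The shares of all probe sets lowest or highest in these arrays were not computed. Markers of reactive glia had a median of 0.71 in knockout replicate 1, and those of skeletal muscle one of 1.91 in knockout replicate 2. The part of carried-over pigment epithelium or lens in the differences of Rpe65, Lrat, Rdh5 and Rgr was not tested.

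**Figure D3:**
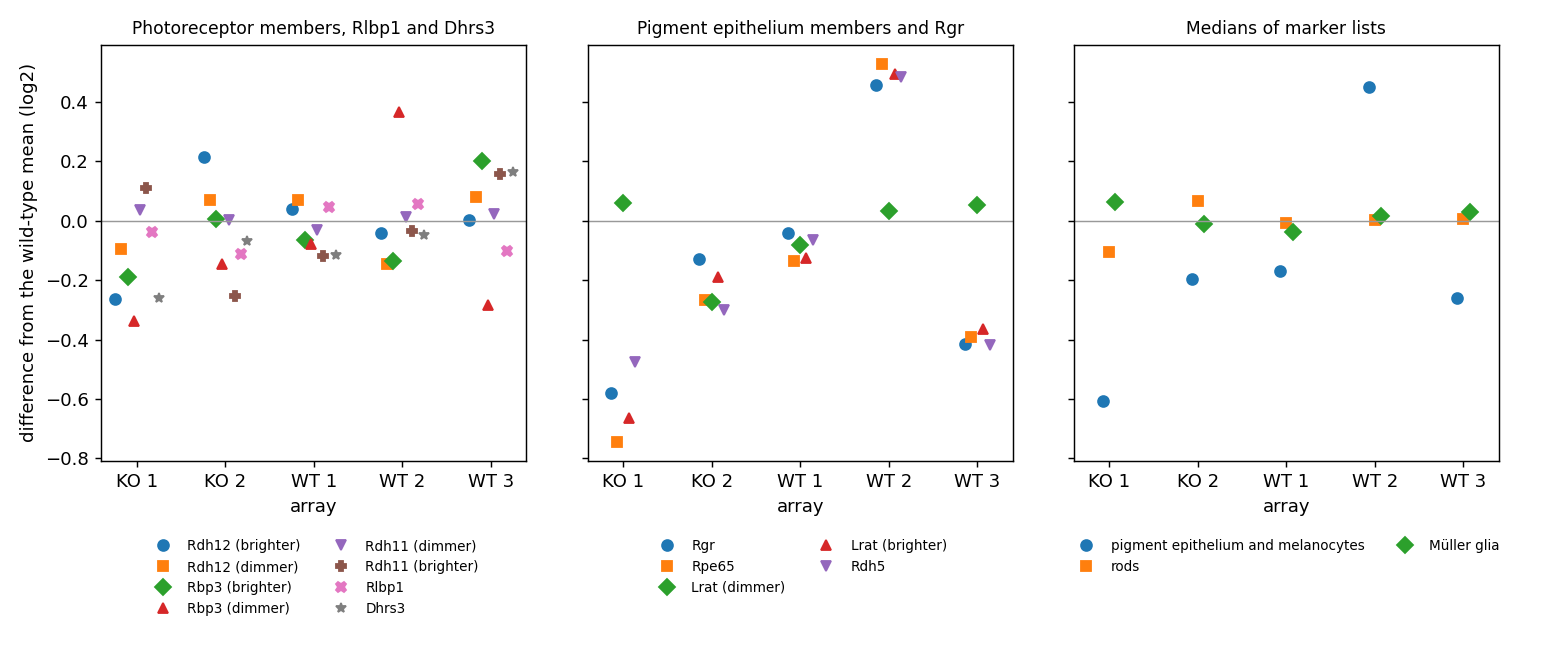
Difference from the wild-type mean (log2, vertical axis) in knockout (KO) replicates 1 and 2 and wild-type (WT) replicates 1 to 3, for photoreceptor members with Rlbp1 and Dhrs3 (left), pigment epithelium members with Rgr (middle) and the medians of marker lists (right). Rpe65, Rdh5, Rgr and the brighter Lrat probe set fall between -0.74 and -0.48 in KO 1 and between 0.46 and 0.53 in WT 2, beside marker medians of -0.61 and 0.45.

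The genes closest to a member in profile over the 6 arrays were sought for 1 gene of each class, by the root mean square difference after centring each profile. Nearest to Rdh12 were Guca1b (0.0747), Pde6g (0.0752) and Pcare (0.104), which belong to photoreceptor outer segments and cilia. Nearest to Rpe65 were the thyroxine and retinol carrier gene Ttr (0.232), Vax2os (0.267) and Ppm1n (0.298), so no gene lay as close to Rpe65 as 3 did to Rdh12. Nearest to Rlbp1 were Gsg1 (0.0780), A930004D18Rik (0.0883) and Fabp12 (0.0917). The array labelled knockout replicate 3 sets most of each such profile.

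Genes that feed, shuttle or degrade retinoids outside the classical cycle also showed no called difference in the 5 arrays. Of 48 such genes, 40 were measured by 64 probe sets. By limma 0 passed in either direction in the 5 arrays and 0 in the 6, with 1 probe set at an unadjusted p under 0.05 in the 5 arrays and 0 in the 6. Their median difference was -0.01. Both knockout values lay below all wild-type values for 3 of the 64 and above for 7, where 7.86% and 8.4% of all probe sets did so.

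The probe set with the smallest p belonged to Rdh10, the retinol dehydrogenase that makes retinal for retinoic acid and that acts with Rpe65 in pigment epithelium. It read 9.86 and 9.93 in knockout replicates 1 and 2, against 10.11, 10.24 and 10.10 in wild type. Groups did not overlap, and the difference was -0.25 (SE 0.10, limma unadjusted p = 0.0361, adjusted p = 0.99998). Its other probe set stood at -0.11, again without overlap. Among carriers, the retinol-binding protein receptor gene Stra6 stood at -0.33 (SE 0.16), Scarb1 at -0.21 and Abca4, the flippase that moves retinal out of discs, at -0.13. The 4 probe sets of Ttr stood between -0.32 and -0.18, with wild-type replicate 2 highest in each. Among dehydrogenases Adh5 stood at 0.19 and Adh1, close to the background mark in these arrays, at 0.14.

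On the side of retinoic acid, Cyp26a1, the enzyme that breaks it down, stood at 0.31 (SE 0.18) and Aldh1a1, which makes it, at 0.16, while Cyp26b1 stood at -0.08. Among genes of ester and carotenoid handling, Lpl stood at 0.19 and Lipe at -0.23. Bco2 lay below the background mark in all 6 arrays, so its -0.11 is a difference between background values. Opsins that bind the chromophore stood at 0.18 for Opn3, 0.11 for Opn4 and 0.11 for the cone opsin Opn1mw. None of these passed, each with an adjusted p = 0.99998.

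The array labelled knockout replicate 3 held little of the photoreceptor side of the cycle. These values come from 1 array and have no test. The brighter Rbp3 probe set read 3.55 there, under its background mark of 4.13, against 13.31 ± 0.18 (SD, n = 3) in wild type, which was at least 581-fold higher. The brighter Rdh12 probe set read 3.82, against 12.13 ± 0.04 (SD, n = 3) in wild type, at least 257-fold higher in wild type. Rpe65 read 4.12, also under the mark, against 10.29 ± 0.47 (SD, n = 3) in wild type, at least 71.4-fold higher in wild type. Each bound sets the wild-type mean against the mark of that array.

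Other members kept a readable signal there. Rlbp1 read 6.44, against 11.57 ± 0.09 (SD, n = 3) in wild type. Rgr read 8.82, against 10.60 ± 0.44 (SD, n = 3) in wild type. Rdh5 read 6.59, against 9.06 ± 0.45 (SD, n = 3) in wild type. The 2 Rdh11 probe sets lay -2.53 and -1.65 from the wild-type mean, and Dhrs3, at 8.90 against 9.29 ± 0.15 (SD, n = 3) in wild type, lay only -0.39 from it. In all, 9 of the 13 lay 2 log2 units or more below the wild-type mean, where 3.7% of all probe sets did, and 0 lay as far above, where 5.38% did.

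A different set of retinoid genes stood high in that array. Adh1, an alcohol dehydrogenase that oxidises retinol, read 12.36, against 4.50 ± 0.06 (SD, n = 3) in wild type. Aldh1a2, a retinal dehydrogenase that makes retinoic acid, read 8.24, against 3.34 ± 0.10 (SD, n = 3) in wild type, whose values lay under the background mark. Aldh1a1 read 12.14, against 9.03 ± 0.06 (SD, n = 3) in wild type. The cytosolic retinoic acid carriers moved too. Crabp1 read 9.79 and Crabp2 8.97 there, against 6.55 ± 0.11 and 5.34 ± 0.09 (SD, n = 3) in wild type. Of the 64 probe sets of other retinoid genes, 10 lay at least 2 log2 units above the wild-type mean and 10 as far below. The lowest of these were Abca4 at -7.19 and the cone opsin gene Opn1sw at -6.97.

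Markers of nasal mucosa stood beside these values. Their summed linear signal was 67035 in that array, against 562 to 569 in wild type, and 1 of 11 lay under its background mark. The summed rod signal was 197 there, against 125522 to 127451 in wild type, with 7 of 11 rod markers under the mark. Markers of pigment epithelium and melanocytes summed to 1302, with 5 of 12 under the mark, against 1445 to 2577 in wild type, though Ermn alone read 9.45 there, against 6.55 ± 0.24 (SD, n = 3) in wild type.

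**Figure D4:**
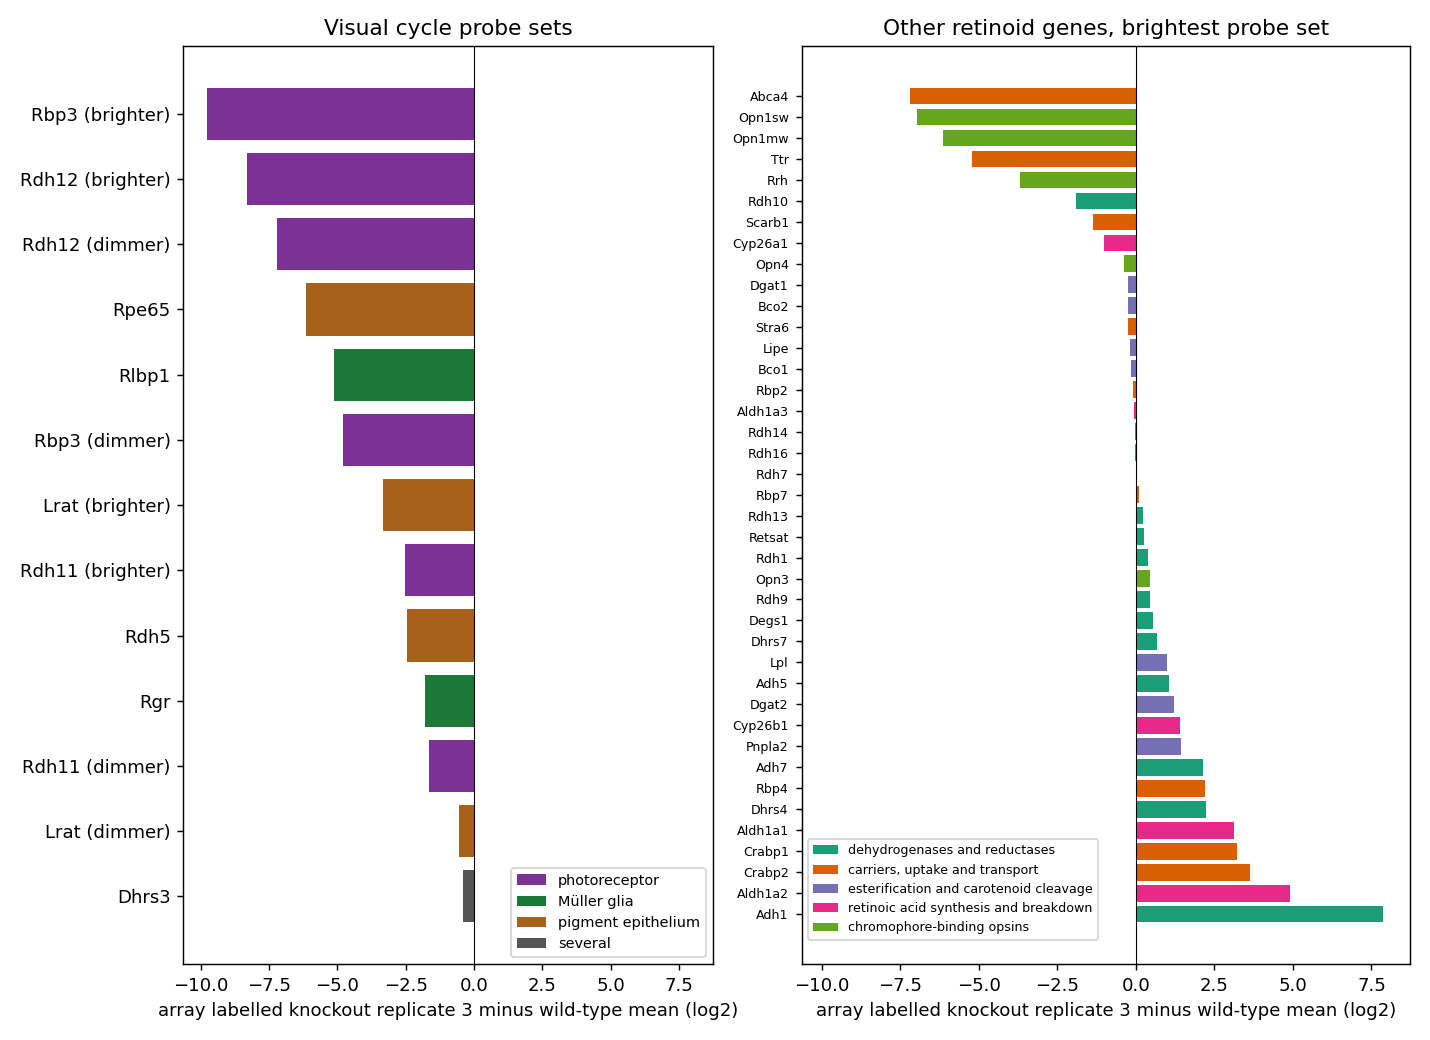
Value of the array labelled knockout replicate 3 minus the wild-type mean (log2, horizontal axes; single array, no error) for the 13 visual cycle probe sets (left, coloured by cell class) and the brightest probe set of each other retinoid gene (right, coloured by role). Bars of probe sets under the background mark (on the left Rpe65, both Rdh12, the brighter Rbp3 and the dimmer Lrat) are measured differences, not sizes of change. On the right this holds for Opn1mw, Rdh7, Rdh16, Rbp2, Rbp7, Bco1, Bco2 and Aldh1a3. It also holds for Aldh1a2 and Rdh1, whose wild-type values lay under the mark. Bars run from -9.76 for Rbp3 to -0.39 for Dhrs3 on the left, and from -7.19 for Abca4 to 7.86 for Adh1 on the right.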

How the data were processed

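Retinal RNA was labelled with biotin and hybridised to Affymetrix arrays, per the labels' protocols. Values were deposited as log2 expression per probe set, and the submitters' processing notes name RMA. The software that ran it and the chip definition were not given in the sources used here. No detection calls, intensities or scan dates were used, so batches could not be checked. Precision is limited by how few arrays there are. Of 45101 probe sets, 64 controls were left out. Of the remaining 45037, the platform annotation gives 34945 exactly 1 gene, 932 several and 9160 none.

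Knockout minus wild type was fitted by limma 3.58.1 in R 4.3.3 (lmFit, then eBayes with its default options, two-sided) on all 45037 probe sets, and p-values were adjusted by Benjamini-Hochberg and read at 0.05. The procedure was also tested on simulated data, in which no array stood apart as the array labelled knockout replicate 3 does. Alternatives were trend and robust options, array quality weights, repeated quantile normalization, median centring, a filter on mean level at percentile 40, a replicate block, each array left out, and the brightest probe set or the mean per gene. Named genes are every member probe set, up to 3 genes per list of other retinoid genes with the smallest p in the 5 arrays, called ones, and the 3 nearest profiles for Rdh12, Rlbp1 and Rpe65. Further genes were chosen after their values were seen. Members and lists were chosen with earlier results of these data known. Promoter sequences are from RefSeq (GRCm38.p6), for 10 of 10 genes, and figures were drawn with matplotlib 3.10.9.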

Additional observations from a re-analysis of the deposited data

How the results depend on the processing

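No visual cycle probe set and no probe set of the other retinoid genes passed an adjusted p of 0.05 under any alternative run, with either 6 or 5 arrays, and the smallest adjusted p over the visual cycle probe sets was 0.433. Of 155 alternative values for the 13 probe sets in the 5 arrays, 142 kept their sign, as did 167 of 168 in the 6 arrays. With an array left out, the 5-array difference ran from -0.26 to 0.22 for the brighter Rdh12 probe set, from -0.094 to 0.068 for the dimmer one, from -0.19 to 0.0084 for the brighter Rbp3 probe set, from -0.25 to 0.11 for the brighter Rdh11 probe set and from -0.27 to 0.058 for the dimmer Lrat probe set. The dimmer Rdh11 probe set ran from -0.82 to 0.018 in the 6 arrays, and the mean of both Rdh11 probe sets gave -0.027 in the 5. In the 5 arrays, the replicate number as a block leaves wild-type replicate 3 alone in its block. The block differences there therefore equal those without that array, and the 155 values hold them under both settings. They turned the sign for Rdh12 (dimmer, 0.026), Rbp3 (brighter, 0.0084) and Rdh11 (brighter, 0.0072). The block changed no call of a member. Deviations of same-numbered arrays from their group means correlated at -0.06, -0.03 and -0.10. The knockout mean included the array labelled knockout replicate 3, which weighs on every knockout deviation. These values therefore cannot show whether the numbers pair the samples. Over all probe sets, the 6 arrays gave 0 calls, 5 with array quality weights and 0 to 5 with an array left out (5 without knockout replicate 3). The block left 0 calls in the 6 arrays and gave 6 in the 5. The 5 arrays gave 5 calls without it, 2 with 1 probe set per gene, where fewer features are tested, and 4 to 11 with an array left out (11 without knockout replicate 1, 9 without knockout replicate 2). In these last fits the lone knockout array is assumed to vary like wild type. Array signal limits the dimmer Lrat probe set, which lies near the background mark and has no value once dim probe sets are left out.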

Other observations

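Over the 5 arrays without the array labelled knockout replicate 3, 507 probe sets, 1.13% of all, spanned at least 1 log2 unit, and 15 of them (2.96%) ran in the order of Rpe65 from knockout replicate 1 as the lowest to wild-type replicate 2 as the highest. All 15 name 1 gene. Beside Rpe65, Lrat and Rgr they were the melanosome genes Tyrp1 (with 2 probe sets), Pmel and Mlana, the lens crystallin genes Cryba2 and Cryba4, and Gja1, Pon1, Ogn, Bmp4, Sema3c and Col8a2. The order and the limit of 1 log2 unit were chosen after the values were seen.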
